A study of Mus musculus with 20 samples.

Results

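The 9 genes described here encode enzymes that make, reduce, oxidise or inactivate steroid hormones and related sterols in the liver: Hsd3b2, Hsd3b3, Hsd3b5, Hsd3b7, Hsd11b1, Hsd17b2, Srd5a1, Akr1d1 and Akr1c6. They were taken by symbol from a table of 46095 genes, in which each of the 9 had its own row, and all 9 were among the 14440 genes that passed a filter on low counts. Hsd3b5 had 269 to 1634 counts in the wild-type chow group and 2192 in 1 wild-type library on the NASH diet, at most 2 counts in 7 libraries, and 3 to 94 in the remaining 7.

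RNA sequencing was done on the livers of 20 mice, 5 in each of 4 groups, to compare liver-specific Pck1 knockouts (labelled Pck1-cKO, here KO) with wild-type mice (WT) on 2 diets. Pck1 encodes the cytosolic phosphoenolpyruvate carboxykinase of gluconeogenesis. Mice of both genotypes ate chow or a diet meant to bring on non-alcoholic steatohepatitis (NASH diet) for 24 weeks, and all 4 groups were 31 to 33 weeks old. The labels number the mice of each group, so each library was taken as a separate animal. The sources used here give neither the Cre driver, the floxed allele, the strain nor the sex of the mice, and do not say whether the WT mice carried a floxed allele.

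The liver does not build steroid hormones from cholesterol as the adrenal gland and the gonads do, but it takes them up, converts active into weak forms and back, and prepares them for excretion. Reductases of the steroid A ring (Srd5a1 and Akr1d1) start the clearance of testosterone and glucocorticoids, hydroxysteroid dehydrogenases switch keto and hydroxyl groups, and Akr1d1 and Hsd3b7 also serve bile acid synthesis from cholesterol. Some genes differ between male and female mouse liver. The 2 sexes release growth hormone in different rhythms, which reach liver genes through the factor STAT5. In the model with group and sex, Hsd3b5 alone of the genes described here differed between the sexes (edgeR adjusted p under 0.05). The part of growth hormone in that difference was not tested.

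Libraries held 9958935 to 20601955 counts, and the 9 genes took 0.0663% to 0.782% of them. CPM are counts brought to 1 common total per library, after library totals were scaled by TMM. Pck1 stood at 1707 to 4641 CPM in WT chow against 458 to 861 in KO chow. On the NASH diet Pck1 stood at 1701 to 2975 in WT against 300.4 to 542 in KO, with no overlap between genotypes on either diet. Sex was read from the counts: 13 libraries with 2753 to 5230 counts over 4 Y-linked genes were taken as male, and the other 7, with 1 to 12, as female. All 5 WT chow mice read as male. In WT NASH replicate 4 was the 1 male beside 4 females, in KO chow replicates 3 and 5 were female and the other 3 male, and in KO NASH replicate 2 was the 1 female. In 6 libraries (WT chow replicates 3, 4 and 5, WT NASH replicate 4, KO chow replicates 4 and 5) longer transcripts were relatively low: log2 CPM, set against the mean of all libraries, changed by -0.34 to -0.25 per log2 unit of exonic length, against 0.0099 to 0.19 in the other 14. Those 6 are called low-slope libraries below, and results that rest on them are given with and without them.

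Summed hepatocyte markers ranged from 46282 to 118718 CPM in WT on chow and 49170 to 94547 on the NASH diet, and in KO from 47130 to 111506 and from 55000 to 65642. Of the 6 markers only Serpina1c was called lower in KO, on both diets. The 6 adrenal cortex markers summed to 0.285 to 1.70 CPM over the 20 libraries, with Cyp11b1, Cyp21a1 and Mc2r at 0 counts in all of them. Of the other liver cells, the 5 macrophage markers summed to 109 to 327 CPM in WT and 144 to 354 in KO on chow, and to 154 to 248 and 126 to 169 on the NASH diet. Cd68 was called higher in KO on chow by 1.03 (SE 0.280, edgeR adjusted p = 0.036) and Gpnmb on the NASH diet by 4.25 (SE 0.757, adjusted p = 0.00177), and the other 3 of the list were not called in either comparison. The 4 endothelial markers summed to 82.4 to 138 CPM in WT NASH and 109 to 203 in KO NASH, with Lyve1 called higher in KO by 1.62 (SE 0.359, adjusted p = 0.00866). The 5 stellate cell markers summed to 48.0 to 159.8 CPM over all libraries, and none was called between genotypes. Between the diets, Cd68 was called higher on the NASH diet in WT, Col1a1 and the bile duct marker Sox9 in KO, and the red blood cell gene Hbb-bs was called lower in both. Bile duct cell markers summed to 2.92 to 16.4, red blood cell markers to 22.4 to 208 and adipocyte markers to 0 to 0.969 CPM. The 3 pancreas markers summed to 11.7 to 107 CPM in WT NASH and 3.24 to 4.45 in KO NASH, with Prss2 at 0 in all libraries. Only 1 of the 3, Cela1, passed the low-count filter, so these sums cannot stand for pancreas genes as a set. Cela1 was called lower in KO NASH than in WT NASH by -3.16 (SE 0.600, edgeR adjusted p = 0.00288). The part of these markers in the results was not tested. In whole liver, fewer cells of a type and less RNA per cell cannot be told apart.

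The Hsd3b genes of the cluster have closely related sequences, which limits how far their counts can be kept apart. Hsd3b1 to Hsd3b6 lie on the minus strand of chr3:98499071-98859794 (GRCm38), a 360.7 kb cluster in the order Hsd3b4, Hsd3b5, Hsd3b2, Hsd3b3, Hsd3b6, Hsd3b1. Hsd3b7 lies apart on chr7:127800604-127803802. The first 90 coding bases of 4 of the cluster's genes, from the GENCODE transcripts, are set out here because the counts of Hsd3b2, Hsd3b3 and Hsd3b5 depend on telling such sequences apart, and capitals mark bases that differ from Hsd3b3.
Hsd3b3: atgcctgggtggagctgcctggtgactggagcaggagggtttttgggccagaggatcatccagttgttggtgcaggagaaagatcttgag
Hsd3b2: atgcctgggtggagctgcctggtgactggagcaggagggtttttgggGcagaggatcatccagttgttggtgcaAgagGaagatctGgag
Hsd3b5: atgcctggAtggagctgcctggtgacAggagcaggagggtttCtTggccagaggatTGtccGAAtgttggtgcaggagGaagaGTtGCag
Hsd3b4: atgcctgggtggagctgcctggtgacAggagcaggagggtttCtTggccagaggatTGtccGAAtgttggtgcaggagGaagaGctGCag
Within this stretch Hsd3b2 differed from Hsd3b3 at 4 positions, Hsd3b4 at 12 and Hsd3b5 at 14. Over the whole reading frame of 1122 bases, Hsd3b2 and Hsd3b3 were 95.1% identical, with a longest shared run of 228 bases, and Hsd3b5 was 95.2% identical to Hsd3b4 but 79.9% identical to Hsd3b3. Hsd3b7 was 52.5% to 53.7% identical to the 6 genes of the cluster. Reads that fall in shared runs could be split between genes or dropped by the counting, so the values of Hsd3b2 and Hsd3b3 are uncertain relative to each other. Of the counts assigned to the cluster in all 20 libraries, Hsd3b3 took 78.5%, Hsd3b5 12.4% and Hsd3b2 9.06%, while Hsd3b6 had 19 counts in total, Hsd3b1 9 and Hsd3b4 0.

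The promoters of the 3 expressed cluster genes are shown because the genes share parts of them and yet differed in level and, for Hsd3b5, between the sexes. Each window runs from 250 bases before the RefSeq start site to 50 bases after it (GRCm38.p6, minus strand), and capitals mark runs of at least 12 bases that 1 of the other 2 windows also holds.
Hsd3b3, chr3:98763079-98763378: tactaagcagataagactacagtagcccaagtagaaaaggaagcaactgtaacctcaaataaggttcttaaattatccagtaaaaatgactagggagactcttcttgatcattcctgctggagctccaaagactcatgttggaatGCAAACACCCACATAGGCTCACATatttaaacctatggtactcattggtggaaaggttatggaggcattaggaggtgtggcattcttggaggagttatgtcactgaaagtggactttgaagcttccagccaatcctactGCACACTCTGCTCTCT
Hsd3b5, chr3:98645485-98645784: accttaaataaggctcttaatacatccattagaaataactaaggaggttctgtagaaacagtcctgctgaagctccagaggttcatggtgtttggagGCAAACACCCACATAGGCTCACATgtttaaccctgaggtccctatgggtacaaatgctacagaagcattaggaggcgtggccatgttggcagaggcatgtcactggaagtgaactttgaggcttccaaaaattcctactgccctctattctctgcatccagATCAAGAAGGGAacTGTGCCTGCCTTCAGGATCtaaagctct
Hsd3b2, chr3:98724494-98724793: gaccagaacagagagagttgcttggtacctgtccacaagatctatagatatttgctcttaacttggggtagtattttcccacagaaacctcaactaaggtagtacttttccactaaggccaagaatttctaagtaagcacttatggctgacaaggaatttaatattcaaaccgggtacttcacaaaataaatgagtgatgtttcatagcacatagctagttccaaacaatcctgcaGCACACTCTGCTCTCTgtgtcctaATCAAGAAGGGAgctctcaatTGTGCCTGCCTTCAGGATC
The longest run shared by Hsd3b5 and Hsd3b3 had 24 bases, that of Hsd3b5 and Hsd3b2 19 and that of Hsd3b2 and Hsd3b3 16, against 8 or 9 between any of these and Hsd3b7. RefSeq places the Hsd3b5 start 15.3 kb upstream of the gene as GENCODE draws it (chr3:98618634-98630252). For Hsd11b1 that distance upstream was -21.7 kb, so the window searched below for Hsd11b1 lies inside the gene. Promoters were found for 8 of the 9 genes in the RefSeq table. The letters TTCNNNGAA, a form of the element STAT5 binds, occurred on either strand in 8.3% of 32851 RefSeq promoters of this length and, among the 8, in Hsd3b7 alone. The letters AGGTCA, read by many nuclear receptors, occurred in 16.3% of them and, among the 8, in Akr1d1 alone, with 2 matches on the minus strand that do not overlap. Both windows are given with the matches in capitals.
Hsd3b7, chr7:127800359-127800658, plus strand: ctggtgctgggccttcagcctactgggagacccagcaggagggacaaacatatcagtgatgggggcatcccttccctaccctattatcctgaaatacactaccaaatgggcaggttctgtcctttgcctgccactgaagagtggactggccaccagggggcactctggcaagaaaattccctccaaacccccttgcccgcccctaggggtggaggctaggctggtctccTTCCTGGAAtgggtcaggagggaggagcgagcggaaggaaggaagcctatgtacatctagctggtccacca
Akr1d1, chr6:37529923-37530222, plus strand: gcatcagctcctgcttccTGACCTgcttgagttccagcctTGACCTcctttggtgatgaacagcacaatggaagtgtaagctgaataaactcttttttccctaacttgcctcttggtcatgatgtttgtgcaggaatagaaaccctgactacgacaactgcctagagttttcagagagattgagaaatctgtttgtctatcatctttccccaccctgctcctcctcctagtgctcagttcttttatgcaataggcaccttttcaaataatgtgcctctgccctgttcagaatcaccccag
These matches describe the letters of the windows and not binding.

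Levels were compared between genes as CPM per kilobase of exonic length, averaged over the 20 libraries. Akr1c6 was highest at 618 CPM per kb, followed by Hsd11b1 at 177, Hsd3b7 at 141, Akr1d1 at 69.5 and Hsd17b2 at 58.8. Hsd3b3 (22.5), Hsd3b5 (20.6) and Srd5a1 (15.8) followed, and Hsd3b2 was lowest in this average at 4.24. The place of Hsd3b5 differed between the groups: it had 39.3 ± 23.9 CPM per kb in WT chow and 41.7 ± 93.1 in WT NASH (SD, n = 5), but 0.306 ± 0.362 in KO chow and 1.27 ± 1.20 in KO NASH, where its mean was below the 2.05 and 2.68 of Hsd3b2. Without division by length the order was Akr1c6, Hsd11b1, Hsd3b7, Akr1d1, Hsd3b3, Hsd17b2, Srd5a1, Hsd3b5 and Hsd3b2, so that Hsd3b3, with 6.396 kb of exon, moved down and Hsd3b5, with 1.549 kb, moved up when length was counted. Neighbours in the order overlapped over the libraries: in WT chow Hsd11b1 was at 266 ± 160 CPM per kb (SD, n = 5) and Hsd3b7 at 206 ± 102, while Akr1c6 stood above both at 788 ± 348. In KO chow Akr1c6 was at 119 ± 71.7 CPM per kb, within the spread of Hsd11b1 (179 ± 157) and Hsd3b7 (103 ± 51.1).

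**Figure D1:**
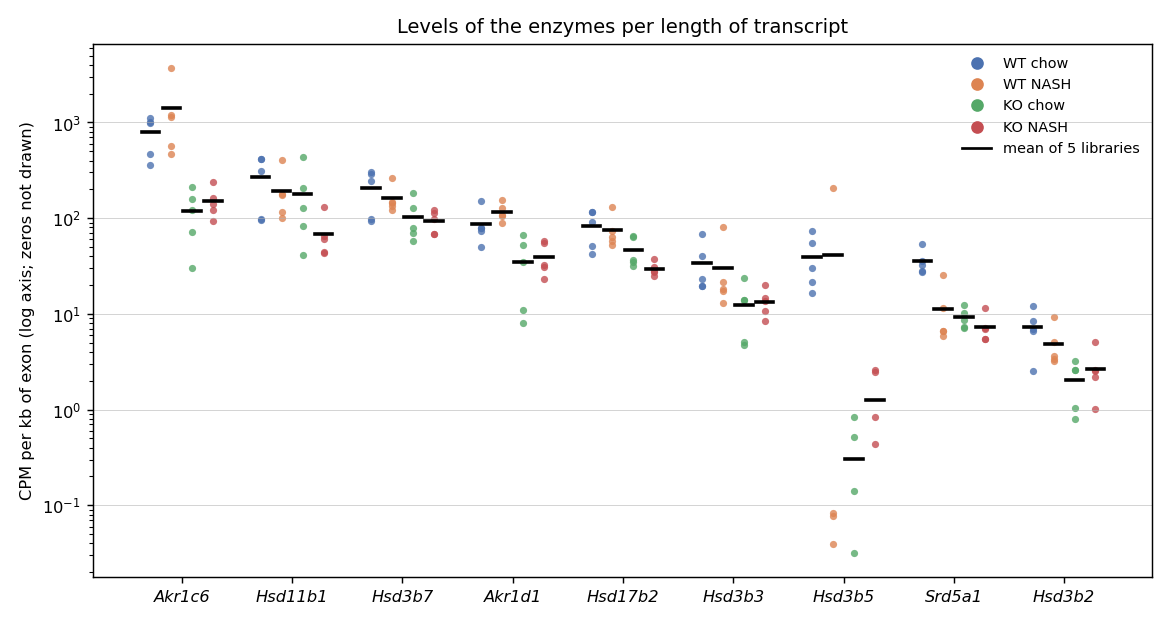
Levels of the 9 enzymes as CPM per kilobase of exon on a log axis, 1 point per library, coloured by group, with a bar at the mean of 5 libraries. Akr1c6 had the highest mean in WT chow (788), WT NASH (1416) and KO NASH (151). In KO chow its mean of 119 was below that of Hsd11b1 at 179. Hsd3b5 spanned the widest range, with zeros not drawn.

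Across the 9 genes, every log2 fold change of KO against WT was below 0 on both diets. Of the 9, 4 were called lower in KO on chow (Akr1c6, Srd5a1, Hsd3b2 and Hsd3b5) and 3 on the NASH diet (Akr1c6, Hsd17b2 and Akr1d1), by edgeR's quasi-likelihood test at a Benjamini-Hochberg adjusted p under 0.05 over all genes tested. None was called higher. On chow 5.53% of all genes tested were called, 2.49% as lower, and on the NASH diet 9.65%, 4.74% as lower. The median log2 fold change of the 9 was -1.48 on chow, where that of all genes was 0.0013, and -1.34 on the NASH diet, where that of all genes was 0.0040. The 2 comparisons share no libraries, but all 20 share 1 estimate of the spread. Before adjustment, 8 of the 9 on chow and 7 on the NASH diet had a p under 0.05, where 19.4% and 25.6% of all genes did. Groups did not overlap in CPM, with KO lower, for 3 of the 9 on chow (Hsd3b5, Srd5a1 and Akr1c6) and for 4 on the NASH diet (Hsd3b7, Hsd17b2, Akr1d1 and Akr1c6), against 2.65% and 6.44% of all genes. For Hsd3b7 the groups did overlap in counts relative to the plain library total. With sex added to the model, 5 of the 9 were called lower on chow and 3 on the NASH diet, where 2.73% and 2.31% of all genes were called lower. WT chow held no female and WT NASH 1 male, replicate 4, so all fits with sex as a term depend in part on that library. Leaving out 1 library could change the sign of the male against female difference for Hsd3b2, Hsd3b3, Hsd3b7, Hsd11b1 and Akr1c6. The sign held for Hsd3b5, Hsd17b2, Srd5a1 and Akr1d1. In the male libraries alone 6 were called on chow, where 6.23% of all genes were called. On the NASH diet males alone leave 1 WT library, which is assumed to vary like the other groups and stood far above the rest of its group for 7 of the 9 enzymes. The 5 calls of that fit, beside 13% of all genes, therefore describe that library and add no support to the comparison.

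**Figure D2:**
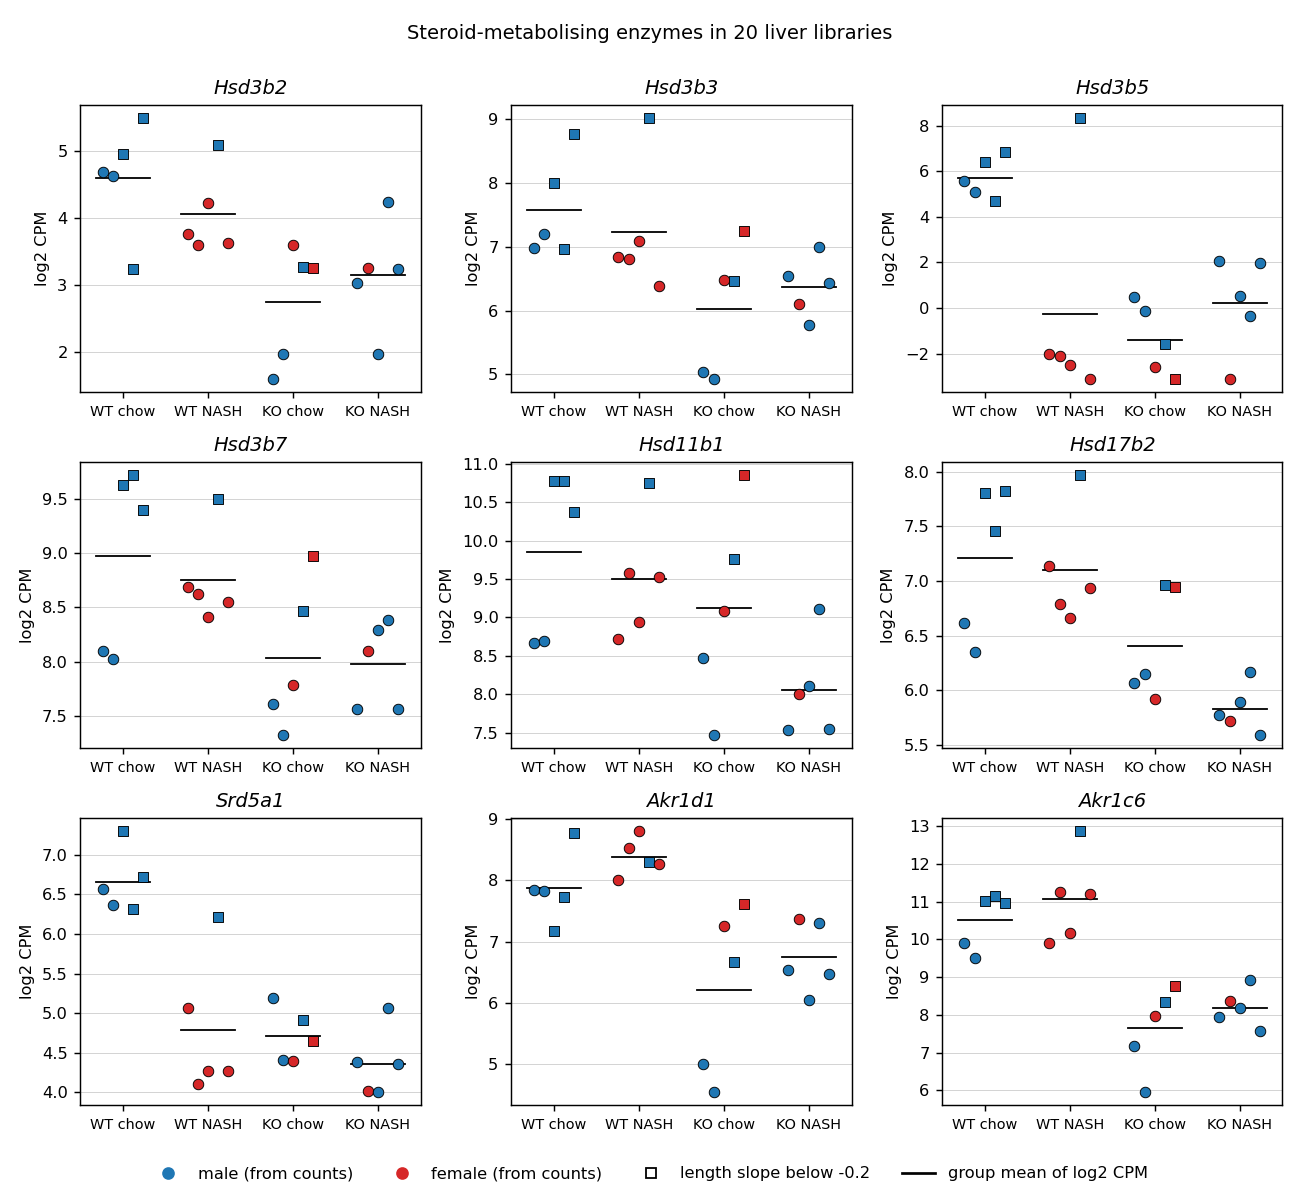
log2 CPM (prior count 2) of each gene in the 20 libraries by group, with sex as read from the counts in colour, low-slope libraries as squares and a bar at the group mean. Akr1c6 was lower in all 10 KO libraries than in any of the 10 WT libraries, and Hsd3b5 lay at the bottom of its axis in female libraries.

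**Figure D3:**
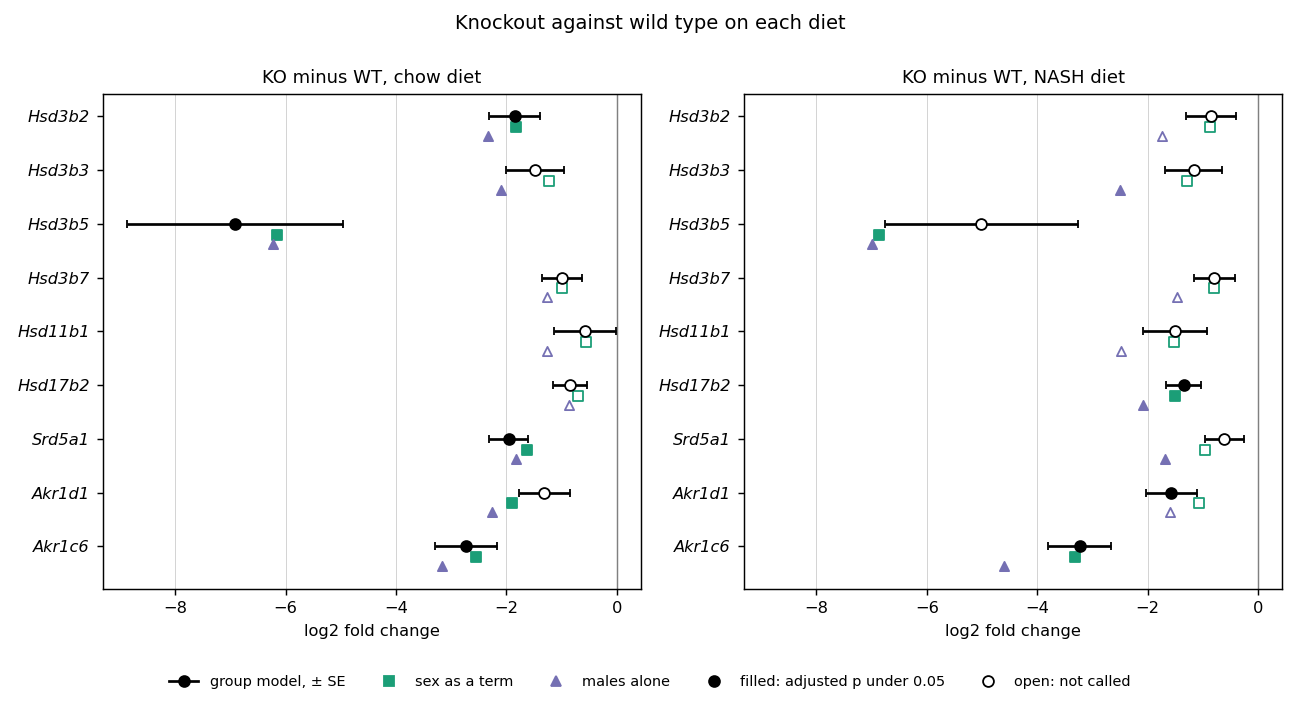
log2 fold change of KO against WT on chow (left) and on the NASH diet (right): circles with SE bars from the model with groups alone, squares with sex as a term and triangles from males alone, filled where the adjusted p was under 0.05. The circles of all 9 genes lie below 0 on both diets, and Hsd3b5 has the widest error at -6.92 (SE 1.96) on chow.

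Without the 6 low-slope libraries, 2 WT and 3 KO libraries remain on chow and 4 female WT and 5 KO libraries on the NASH diet. Those 5 KO libraries are 4 males and 1 female, so genotype and sex can hardly be told apart in that NASH comparison. On chow 4 of the 9 were then called lower: Akr1c6 by -2.46 (adjusted p = 0.0172), Srd5a1 by -1.75 (adjusted p = 0.0113), Hsd3b2 by -2.01 (adjusted p = 0.0493) and Hsd3b5 by -5.79 (adjusted p = 0.00698). These are the 4 genes called with all libraries, and 5.33% of all genes were called in this fit. Of the 3 called on the NASH diet, Akr1c6 was at -2.49 (adjusted p = 0.00108), Hsd17b2 at -1.05 (adjusted p = 0.000337) and Akr1d1 at -1.59 (adjusted p = 0.023), and Hsd3b7, Hsd11b1 and, with the opposite sign, Hsd3b5 were called as well. The 6 calls stand beside 20.3% of all genes called, where the fit with all libraries called 9.65%.

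Akr1c6 encodes an aldo-keto reductase that interconverts keto and hydroxyl groups of androgens and estrogens and lies on chr13:4434306-4457877 (plus strand, GRCm38). On chow, Akr1c6 was at 952, 728, 2059, 2273 and 1994 CPM in WT replicates 1 to 5 and at 145, 61.9, 248, 321 and 434 CPM in KO. With the NASH diet, Akr1c6 stood at 961, 2441, 1153, 7498 and 2342 CPM in WT and at 245, 329, 288, 482 and 189 CPM in KO. No KO library reached the lowest WT library on either diet, and within WT NASH, replicate 4, the male low-slope library, stood far above the other 4. KO chow was lower than WT chow by -2.73 on the log2 scale (SE 0.562, edgeR adjusted p = 0.00771), and KO NASH lower than WT NASH by -3.23 (SE 0.574, adjusted p = 0.00172). Both calls held when any 1 of the 20 libraries was left out, with log2 fold changes of -3.01 to -2.48 on chow and -3.45 to -2.49 on the NASH diet, where the value nearest 0 came without WT NASH replicate 4. With sex as a term the values were -2.54 (adjusted p = 0.0223) on chow and -3.31 (adjusted p = 0.00328) on the NASH diet. Females alone, with 4 WT NASH and 1 KO NASH library, gave -2.37 (adjusted p = 0.345). Of the 7 other Akr1c genes aligned, the closest, Akr1c20, was 92.3% identical in its reading frame with a longest shared run of 65 bases. Akr1c6 took 58.4% of the counts of the 8 Akr1c genes examined, and the 8 summed changed by -1.75 on chow (SE 0.521, adjusted p = 0.0536) and by -2.46 on the NASH diet (SE 0.534, adjusted p = 0.00753).

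Hsd17b2 (chr8:117701904-117759027, plus strand) oxidises estradiol and testosterone to their less active keto forms. WT mice on chow had Hsd17b2 at 98.1, 81.2, 223, 175 and 226 CPM in replicates 1 to 5, and KO mice at 66.8, 70.7, 60.2, 125 and 123 CPM. In the same order, the WT libraries on the NASH diet had 141, 110.2, 101, 251 and 122 CPM and the KO libraries 54.6, 52.5, 59.2, 71.8 and 47.9 CPM. The highest KO library on the NASH diet lay below the lowest WT library, while on chow WT replicates 1 and 2 overlapped the KO range. Among low-slope libraries on chow, the 3 WT stood at 175 to 226 CPM and the 2 KO at 123 to 125. Among the rest on chow, the 2 WT stood at 81.2 to 98.1 CPM and the 3 KO at 60.2 to 70.7. The fall on the NASH diet was -1.34 (SE 0.317, edgeR adjusted p = 0.0125), was called in each of the 20 fits that left out 1 library, and stood at -1.51 (adjusted p = 0.0151) with sex as a term. On chow the log2 fold change was -0.85 (SE 0.313, adjusted p = 0.124), and with the length slope as a term it was -0.55 (adjusted p = 0.0331). KO NASH had the smallest spread of the 4 groups, with 57.2 ± 9.13 CPM (SD, n = 5).

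Srd5a1, on chr13:69573449-69611442 (minus strand), encodes the steroid reductase that turns testosterone into dihydrotestosterone and also inactivates glucocorticoids. On chow, Srd5a1 was at 95.01, 82.1, 157, 79.8 and 105 CPM in WT replicates 1 to 5 and at 36.4, 21.2, 20.9, 30.1 and 24.97 CPM in KO. With the NASH diet, Srd5a1 stood at 33.3, 17.03, 19.3, 74.4 and 19.1 CPM in WT and at 20.7, 16.1, 15.96, 33.4 and 20.3 CPM in KO. WT chow stood apart: its lowest library exceeded the highest of every other group, and the nearest was WT NASH replicate 4. KO chow was lower than WT chow by -1.96 (SE 0.358, edgeR adjusted p = 0.00351), a call that held without any 1 library and with sex as a term (-1.62, adjusted p = 0.00515). The genotype difference on the NASH diet was -0.61 (SE 0.349, adjusted p = 0.285), and among males alone, with replicate 4 as the sole WT NASH library, -1.69 (adjusted p = 0.0179). WT NASH was lower than WT chow by -1.68 (SE 0.356, adjusted p = 0.00869), in a comparison where 5.93% of all genes were called, 3.24% as lower. That call was held in all 20 fits that left out 1 library, and was not held with sex as a term (-1.17, adjusted p = 0.107) or between males alone, 5 against 1 (-0.50, adjusted p = 0.658). Srd5a1 in WT NASH was at 74.4 CPM in the male and 22.2 ± 7.50 (SD, n = 4) in the females. Since WT chow held no female, diet and sex cannot be told apart for the 4 females of WT NASH.

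Akr1d1 (chr6:37530173-37568815, plus strand) is the other A-ring reductase, acting on steroid hormones and on bile acid intermediates. WT mice on chow had Akr1d1 at 228, 228, 145, 213 and 438 CPM in replicates 1 to 5, and KO mice at 31.9, 23.3, 153, 101 and 195 CPM. In the same order, the WT libraries on the NASH diet had 258, 368, 447, 314 and 307 CPM and the KO libraries 92.9, 165, 66.4, 158 and 89.01 CPM. Every KO NASH library was below every WT NASH library, and on chow KO replicates 3 and 5, the 2 females, reached into the WT range. The change on the NASH diet was -1.57 (SE 0.460, edgeR adjusted p = 0.036), and on chow -1.31 (SE 0.457, adjusted p = 0.101). With sex as a term the chow difference was -1.90 (adjusted p = 0.017) and the NASH difference -1.06 (adjusted p = 0.16), so which of the 2 passed the threshold changed with that term. Without KO chow replicate 5 the chow difference was -1.67 (adjusted p = 0.0323). For the NASH diet the adjusted p was 0.0667 without WT NASH replicate 2, 0.0661 without 3, 0.053 without 4 and 0.0576 without 5, and 0.0907, 0.0925 and 0.0961 without KO NASH replicates 1, 3 and 5.

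Hsd3b2 (chr3:98709255-98724543) and Hsd3b3 (chr3:98741523-98763127) encode dehydrogenase-isomerases that act on hydroxysteroid precursors. On chow, Hsd3b2 was at 25.6, 24.6, 31.05, 9.31 and 45.1 CPM in WT replicates 1 to 5 and at 2.92, 3.82, 12.03, 9.58 and 9.48 CPM in KO. With the NASH diet, Hsd3b2 stood at 13.4, 11.98, 18.6, 34.1 and 12.3 CPM in WT and at 8.06, 9.49, 3.79, 18.9 and 9.34 CPM in KO. The genotypes overlapped on both diets, on chow through WT replicate 4, which lay below 3 of the 5 KO libraries. Hsd3b2 was lower in KO chow by -1.85 (SE 0.464, edgeR adjusted p = 0.024). The adjusted p was 0.0549 without WT chow replicate 3, 0.0663 without 5, and 0.0696 and 0.0741 without KO chow replicates 1 and 2. With the NASH diet the value was -0.86 (SE 0.453, adjusted p = 0.243).

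Hsd3b3 was measured at a higher level than Hsd3b2, also per length. WT mice on chow had Hsd3b3 at 126, 147, 256, 126 and 438 CPM in replicates 1 to 5, and KO mice at 32.7, 30.4, 88.9, 88.5 and 152 CPM. In the same order, the WT libraries on the NASH diet had 115, 112, 136, 520.1 and 83.7 CPM and the KO libraries 93.4, 68.7, 54.5, 127 and 86.7 CPM. The genotypes overlapped on both diets, and WT NASH replicate 4 was the highest of the 20 libraries. Hsd3b3 did not pass the threshold on chow (-1.48, SE 0.524, edgeR adjusted p = 0.108) or on the NASH diet (-1.17, SE 0.520, adjusted p = 0.162). It passed on chow without KO chow replicate 5 (-1.84, adjusted p = 0.0432) or without WT NASH replicate 4 (-1.48, adjusted p = 0.038), which is outside that comparison but part of the same model. With the counts of Hsd3b1 to Hsd3b6 summed, the change was -1.82 on chow (SE 0.586, adjusted p = 0.0755) and -1.49 on the NASH diet (SE 0.580, adjusted p = 0.108).

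Hsd3b5 encodes the male-predominant member of the cluster, a ketosteroid reductase that inactivates dihydrotestosterone. On chow, Hsd3b5 was at 47.1, 33.6, 84.7, 25.5 and 113 CPM in WT replicates 1 to 5 and at 1.297, 0.804, 0.0495, 0.218 and 0 CPM in KO. With the NASH diet, Hsd3b5 stood at 0.129, 0.119, 0.0605, 322 and 0 CPM in WT and at 4.01, 0, 1.304, 0.671 and 3.85 CPM in KO. The 5 WT chow libraries and the male of WT NASH stood at 25.5 CPM or more, and no other library passed 4.01. The 7 female libraries held 6 counts of Hsd3b5 in total, at most 2 in any library, and the 13 males held 6626, with the fewest in KO chow replicate 4, at 3 counts. With groups as terms, males exceeded females by a log2 difference of 11.58 (SE 0.906, edgeR adjusted p = 7.84e-08), in a comparison that called 1.02% of all genes, 0.54% as higher in males. A fitted value of that size depends on the few counts in females, and leaving out 1 library gave 6.41 to 12.02, with 6.41 in the absence of WT NASH replicate 4 and the adjusted p at most 0.026.

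Among males, Hsd3b5 stood at 60.8 ± 37.0 CPM in WT chow (SD, n = 5), 322 in the single WT NASH male, 0.773 ± 0.540 in KO chow (n = 3) and 2.46 ± 1.72 in KO NASH (n = 4). The male KO libraries on chow therefore lay below the male WT libraries with no overlap, and so did those on the NASH diet against 1 library. KO chow was lower than WT chow by -6.92 (SE 1.96, edgeR adjusted p = 0.0429), and with sex as a term by -6.16 (adjusted p = 0.000289). Without sex in the model the chow call was lost in 13 of the 20 fits that left out 1 library (WT chow 1, 3, 4 or 5, any KO chow library, KO NASH 1, 3, 4 or 5), at adjusted p of 0.0507 to 0.103. On the NASH diet KO was lower by -5.02 (SE 1.75, adjusted p = 0.073), by -6.88 (adjusted p = 3.78e-05) with sex as a term, and higher by 4.67 (adjusted p = 0.0351) without WT NASH replicate 4, when 4 females were compared with 4 males and 1 female. WT NASH against WT chow gave 0.07 (SE 1.45, adjusted p = 0.983) with all libraries and -9.63 (adjusted p = 0.000128) without replicate 4. The direction of both NASH diet comparisons of Hsd3b5 thus rests on 1 library, which is also the sole male of its group and a low-slope library.

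Lists of sex-dependent liver genes were read beside Hsd3b5. Of 10 genes listed as higher in male liver, 7 were called higher in males in the same model (Cyp4a12a by 8.39 and Slco1a1 by 5.76), and of 12 listed as higher in female liver 9 were called lower in males (Cyp3a41a by -13.72 and Sult2a1 by -11.78). The female list had 10 of 12 called higher in WT NASH against WT chow, 8 of 12 called higher in KO chow against WT chow, and 1 of 12, Cux2, called lower in KO NASH against WT NASH. Its summed level in WT was 25.2 to 53.9 CPM on chow and 17.5 to 4913 on the NASH diet, and in KO 70.7 to 10781 and 344 to 1161. The male list summed in WT to 3267 to 11100 CPM on chow and 132 to 10369 on the NASH diet, and in KO to 150 to 1425 and 185 to 1977, with no member at 0 in all libraries. Of this list, 0 of 10 were called in either WT NASH or KO chow against WT chow. In KO NASH against WT NASH 1 of 10, Selenbp2, was called lower. Of 13 genes of growth hormone signalling, 4 were called lower in KO NASH (Cux2 by -5.21 and Prlr by -2.04), 1 in KO chow (Ghr, the growth hormone receptor, by -0.93) and 3 higher in WT NASH (Cux2 by 4.73 and Stat5a by 1.75). The shares of all genes and the differences in sex given above apply to these comparisons too. Cux2 stands in both the female and the growth hormone list. The part of sex or of growth hormone genes in the changes of the 9 enzymes, beyond the models with sex as a term, was not tested.

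For the other 8 enzymes, the difference between males and females did not pass the threshold in the model with groups. Srd5a1 was at 0.83 (SE 0.254, edgeR adjusted p = 0.194), higher in males, and Akr1d1 at -0.96 (SE 0.358, adjusted p = 0.403), higher in females. In WT NASH, Akr1d1 in the male (314 CPM) lay within the range of the females (258 to 447). The remaining 6 ranged from 0.02 for Hsd3b7 to 0.38 for Hsd3b3, with SE of 0.272 to 0.513.

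Hsd11b1, on chr1:193221634-193264075 (minus strand), reactivates glucocorticoids from their inert keto form inside hepatocytes. WT mice on chow had Hsd11b1 at 407, 414, 1749, 1763 and 1323 CPM in replicates 1 to 5, and KO mice at 353, 177, 544, 871 and 1859 CPM. In the same order, the WT libraries on the NASH diet had 423, 761, 490.1, 1721 and 734 CPM and the KO libraries 185, 256, 276, 550.2 and 188 CPM. In each of the 3 groups that held low-slope libraries, these were the highest, as they also were for Hsd3b7, Hsd17b2 and Akr1c6. For Hsd11b1, KO chow replicate 5 exceeded all WT libraries. The genotype difference was -0.57 on chow (SE 0.563, edgeR adjusted p = 0.619) and -1.504 on the NASH diet (SE 0.574, adjusted p = 0.102). Without the 6 low-slope libraries, which leaves no WT NASH male, the NASH value was -1.05 (adjusted p = 0.0479). DESeq2 with all libraries gave -1.51 (adjusted p = 0.043). Between the 2 KO groups it was the member with the smallest p, lower on the NASH diet by -1.39 (SE 0.572, unadjusted p = 0.0248, edgeR adjusted p = 0.163).

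Hsd3b7 encodes the dehydrogenase that acts on hydroxylated sterols early in bile acid synthesis, and not on steroid hormones. On chow, Hsd3b7 was at 274, 261, 793, 847 and 673 CPM in WT replicates 1 to 5 and at 195, 159, 220.4, 354 and 502 CPM in KO. With the NASH diet, Hsd3b7 stood at 413, 394, 341, 724 and 373 CPM in WT and at 189, 273, 312, 335 and 189 CPM in KO. Every KO NASH library lay below every WT NASH library by CPM, but this separation rests on the TMM scaling. TMM factors were 0.683 to 1.1 in WT NASH and 1.13 to 1.32 in KO NASH. Relative to the plain total, KO NASH replicate 4 (6982 of 17675408 counts) exceeded WT NASH replicate 3 (5632 of 15045585). On chow, WT replicates 1 and 2 lay within the KO range. Among low-slope libraries on chow, the 3 WT stood at 673 to 847 CPM and the 2 KO at 354 to 502. Among the rest on chow, the 2 WT stood at 261 to 274 CPM and the 3 KO at 159 to 220. The difference was -0.99 on chow (SE 0.369, edgeR adjusted p = 0.127) and -0.79 on the NASH diet (SE 0.368, adjusted p = 0.18), neither past the threshold. It passed on chow with the length slope as a term (-0.64, adjusted p = 0.0256) or without KO chow replicate 5 (-1.26, adjusted p = 0.0419). On the NASH diet it passed without the 6 low-slope libraries (-0.55, adjusted p = 0.0464), which leaves no WT NASH male.

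In WT mice Srd5a1 was the 1 member called, and its groups did not overlap, against 3.25% of all genes that were lower without overlap. The other 8 ranged from -0.60 for Hsd3b2 (SE 0.450) to 0.85 for Akr1c6 (SE 0.531, edgeR adjusted p = 0.353). In KO mice edgeR called 0 of 9 between the NASH diet and chow, where it called 3.29% of all genes. Before adjustment 1 member had a p under 0.05, where 22.2% of all genes did. By DESeq2 the count was 0, with 9.04% of all genes called, and by limma voom, with 12.7% called, it was 1, Akr1d1 (1.28, adjusted p = 0.0416). With the length slope as a term Akr1c6 was called higher on the NASH diet in both genotypes, by 1.20 (adjusted p = 0.0102) in WT and 1.17 (adjusted p = 0.0229) in KO.

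**Figure D4:**
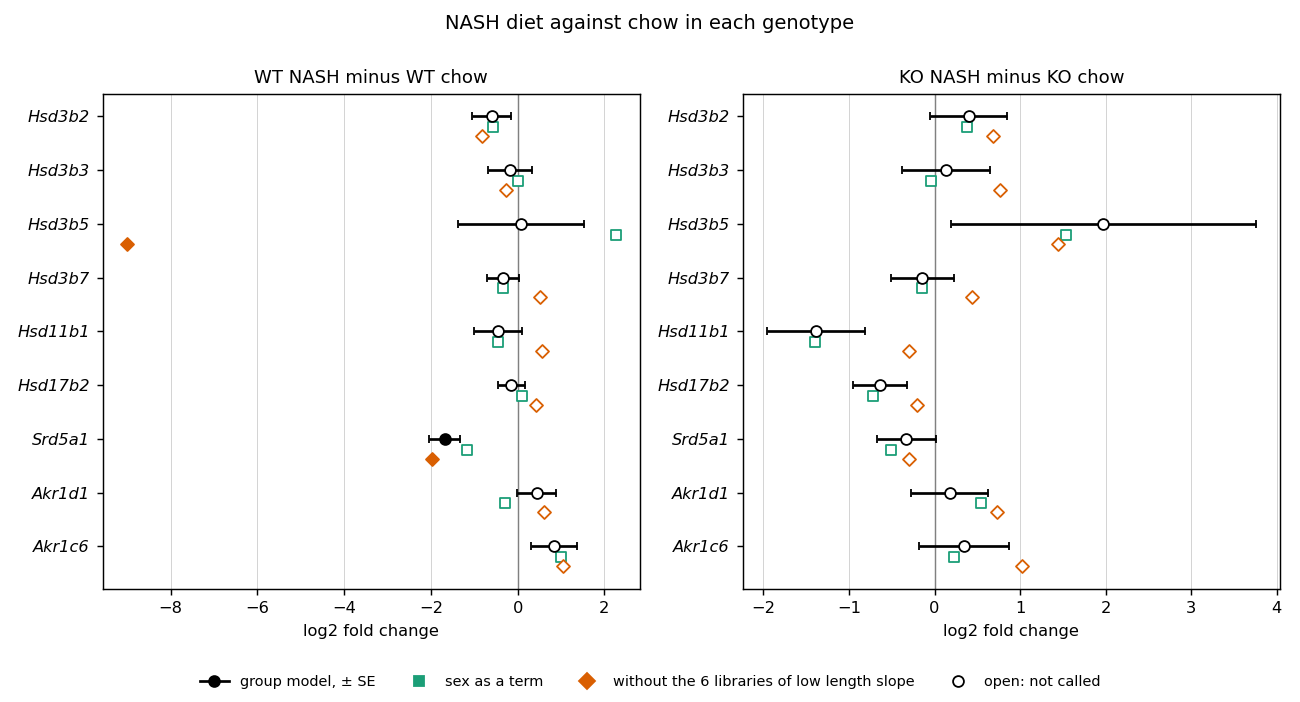
log2 fold change of the NASH diet against chow in WT (left) and KO (right), as circles with SE bars from the model with groups alone, squares with sex as a term and diamonds without the 6 low-slope libraries, filled where called. In WT the circle of Srd5a1 at -1.68 is the sole filled one, and Hsd3b5 moves from 0.07 to -9.01 without the low-slope libraries.

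The genotype by diet interaction, which subtracts the genotype effect on chow from that on the NASH diet, asks whether the 2 effects differed. edgeR called 0 of the 9, with 0.139% of all genes called. The 1 member with an unadjusted p under 0.05 was Srd5a1, where 8.25% of all genes had one. Its interaction was 1.35 (SE 0.493, edgeR adjusted p = 0.396), a smaller fall on the NASH diet than on chow. DESeq2 called 0, with 1.31% of all genes, and limma voom 5 (Hsd3b2, Hsd3b3, Hsd3b5, Hsd3b7 and Srd5a1), with 13.5% of all genes. Without WT NASH replicate 4 the interaction of Srd5a1 was 1.90 (adjusted p = 0.0165) and that of Hsd3b5 11.58 (adjusted p = 0.00297). For Akr1c6, the interaction was -0.50 (SE 0.746, adjusted p = 0.939), and for Hsd17b2 -0.49 (SE 0.440, adjusted p = 0.852), so a difference between diets was not shown for either.

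Likeness of pattern was measured as the root mean square difference of log2 CPM over the 20 libraries, each gene centred on its mean, among 11340 genes that averaged 1 CPM or more. Among the 9, the closest pairs were Hsd3b7 and Hsd17b2 at 0.321 and Hsd3b2 and Hsd3b3 at 0.448. Hsd3b5 was the farthest from all others, at 2.89 from Srd5a1 and more from the rest, and the genes nearest to it were Mup12 at 1.36, Moxd1 at 1.44 and Mup20 at 1.46, where the median over all genes was 3.76. Hsd17b2 was nearest to Igf1, a growth hormone target, at 0.26 (median 0.901). Akr1c6 was nearest to Lect2 at 0.435 (median 1.78), Srd5a1 to Ces3b at 0.48 (median 1.15), Hsd11b1 to Akr1c13 at 0.281 (median 1.25), Hsd3b3 to Upp2 at 0.442 (median 1.12), Akr1d1 to Enpep at 0.48 (median 1.24), and Hsd3b7 to Mien1 at 0.215 (median 0.885). The pancreas marker Cela1 held rank 3 among the genes nearest to Akr1c6, at 0.618. These distances share libraries, their sex and their length slope, and are given as a description.

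The wider steroid pathway did not move in 1 direction. Of 38 other genes of steroid metabolism and steroid receptors listed, 36 were in the table and 28 were tested. On chow, 3 of the 28 were called higher and 1 lower in KO, where 5.53% of all genes were called. The most changed were the aldo-keto reductase Akr1c18 at 5.56 (SE 1.49, edgeR adjusted p = 0.034), whose KO chow level was 6.40 ± 13.1 CPM (SD, n = 5), and the retinol and steroid dehydrogenase Dhrs9 at 2.53 (SE 0.622, adjusted p = 0.0224). On the NASH diet 3 of the 28 were called higher and 5 lower in KO, where 9.65% of all genes were called. Akr1c20 at -2.85 (SE 0.668, adjusted p = 0.0121) and the estrogen receptor Esr1 at -1.98 (SE 0.289, adjusted p = 0.000417) were the most changed. The median over the 28 was -0.03 on chow and -0.24 on the NASH diet, against -1.48 and -1.34 for the 9 enzymes, which were chosen with earlier results of these data known. On the NASH diet against chow, 2 of the 28 were called higher (Dhrs9 by 2.35) and 4 lower (Hsd17b10 by -2.27) in WT, where 5.93% of all genes were called. In KO 2 were called lower, Cyp17a1 by -4.10 and Hsd17b11 by -1.21, where 3.29% of all genes were called. Cyp17a1 was also lower in males by -3.55 (SE 0.433, adjusted p = 4.54e-05).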

How the data were processed

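The authors deposited 1 table of raw counts per gene symbol for 20 liver libraries, each a separate column that the labels tie to 1 mouse. HISAT2 2.0.4 and the build GRCm38 are named in the submitters' processing notes. The sources used here do not give the counting program, the annotation or the strand setting. Headers with HFD as the diet were matched to NASH samples by genotype and replicate number, since the other headers name chow.

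Counts were analysed with edgeR 4.0.16 in R 4.3.3. Its low-count filter (filterByExpr, minimum count 10) kept 14440 genes with 99.91% of all counts, libraries were scaled by TMM, and 1 model with a coefficient per group was fitted to all 20 libraries (common biological coefficient of variation 39%). Genes were tested by the quasi-likelihood F test, with Benjamini-Hochberg adjustment over all genes tested. CPM are counts scaled to a common total by the TMM-scaled library size, and log2 CPM in plots used a prior count of 2. The male against female difference was fitted with sex beside group, with libraries of at least 100 Y-linked counts taken as male. The length slope was fitted over 9517 genes with lengths from GENCODE M21, which matched 93.5% of tested genes. Promoters came from a RefSeq table (GRCm38.p6).

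Alternatives were RLE scaling, no filter, DESeq2 1.42.0, voom with quality weights (limma 3.58.1), the compared groups alone, the replicate number as a block, sex and length slope as terms, each sex alone, each library left out, and KO NASH replicates 1 and 5 summed. Leaving out the 6 low-slope libraries, summing paralogs and values by sex or by length slope were added after seeing the data. The 9 genes, the lists and the rule for naming genes were chosen with earlier results of these data known. From each list at most the 2 called genes of largest change per comparison are named, and the genes nearest in pattern exclude predicted genes. Library totals were 9958935 to 20601955 counts, and intervals cannot account for PCR copies, since the table has no molecular identifiers.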

Additional observations from a re-analysis of the deposited data

Results flagged for a closer look

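In a group of 5 libraries, a value was singled out where its gap to the nearest other library took more than 0.71 of the whole range of the group (Dixon's 95% limit). Of 36 gene and group combinations, 10 did so. The limit is set for 1 in 20 single groups of normally spread values. The 36 share libraries, so their number cannot be set against that rate. WT NASH replicate 4 was the one for 7 of the 9 enzymes, with 520.1 CPM for Hsd3b3, 322 for Hsd3b5, 724 for Hsd3b7, 1721 for Hsd11b1, 251 for Hsd17b2, 74.4 for Srd5a1 and 7498 for Akr1c6, each the highest of its group. That library is the sole male of WT NASH and a low-slope library. KO NASH replicate 4 was highest for Hsd11b1 at 550.2 CPM and for Srd5a1 at 33.4 CPM. WT chow replicate 5 was highest for Akr1d1 at 438 CPM.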

How the results depend on the processing

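Of 1699 values of single enzymes under the alternatives run, 1499 kept their direction and their side of the threshold, 107 changed direction with no call in either fit, 37 lost and 51 gained a call, and 5 changed direction with a call. Those 5 were Hsd3b5 in WT NASH against WT chow, at -9.14 with limma voom, -9.01 without the 6 low-slope libraries and -9.63 without WT NASH replicate 4, and Hsd3b5 in KO NASH against WT NASH, at 4.66 without the 6 and 4.67 without that replicate. The latter 4 drop the sole WT NASH male; the cause of the first was not tested. Over all fits that left out 1 library the first comparison ran from -9.63 to 0.42 and the second from -5.43 to 4.67.

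The number of the 9 called is given with the share of all genes called in the same fit. In WT NASH against WT chow it was 1 (5.93%), and became 5 with voom (40.6%), 0 with the 2 groups alone (2.74%), with sex as a term (1.11%) or in males alone (0.596%), and 2 with the length slope (12.3%), with sex and slope together (5.01%), or without the 6 low-slope libraries (4.88%). For KO chow against WT chow it was 4 (5.53%), and became 9 with voom (40.4%) and 7 with the length slope (11.5%). It was 6 with DESeq2 (9.63%) or with sex and slope together (13.8%), and 5 with sex as a term (5.84%). It was 3 with the 2 groups alone (2.2%), where Hsd3b2 was not called (-1.84, adjusted p = 0.0653), or with KO NASH replicates 1 and 5 summed (4.85%). KO NASH against WT NASH had 3 (9.65%), which became 5 with DESeq2 (15.2%) or in males alone (13%, with 1 WT library), 6 without the 6 libraries (20.3%), 2 with the summed pair (5.23%), and 0 in females alone (0.138%), where KO NASH has 1 library that is assumed to vary like the others. The count for KO NASH against WT NASH was 4 with voom (23.8%) or with the 2 groups alone (15.2%). KO NASH against KO chow had 0 (3.29%), and 1 with voom (12.7%), with the slope (6.37%) or with sex and slope (9.37%). The interaction had 0 (0.139%), but 5 with voom (13.5%) and 1 without the 6 libraries (0.518%). Male against female had 1 (1.02%), and 2 with the slope added to sex (2.36%), which is the same fit as the slope alone there. The causes of these differences were not tested, beyond the fewer libraries of some fits. Leaving out each library in turn gave 1 to 2 calls, 2 to 6, 2 to 4, 0 to 0, 0 to 2 and 1 to 1 in these 6 comparisons, while the genes called in all ran from 414 to 1712, 347 to 1219, 714 to 1727, 147 to 792, 4 to 144 and 101 to 172. With KO NASH replicates 1 and 5 summed, Hsd3b5 on chow (adjusted p = 0.0515) and Akr1d1 on the NASH diet (adjusted p = 0.093) were not called. Those 2 libraries were the most alike of any pair within a group, with a chi-square per degree of freedom of 7.98 over genes against 21.6 for the next pair. A value above sampling noise cannot show that they came from separate animals, since 2 libraries of 1 liver could also exceed it. They were kept as 2 samples because the labels number them as 2 mice.

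With the replicate number as a replicate block, 1, 5, 4, 0, 0 and 1 enzymes were called in the same 6 comparisons, beside 7.11%, 6.11%, 10.1%, 3.7%, 0.0277% and 0.886% of all genes. The labels do not say that a number links mice across groups: 13 of 30 same-numbered pairs had deviations correlated above 0.1, and 6 of 20 libraries correlated best with their own number. Depth limits Hsd3b5, which had 0 to 2 counts in female libraries. Each group has 5 mice, WT chow has no female and WT NASH 1 male.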
